A study of Mus musculus with 12 samples.

Results

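The CD300 receptor family was followed across 12 arrays of splenic dendritic cells as 7 listed genes, Cd300a, Cd300lf, Cd300ld, Cd300lb, Cd300c, Cd300e and Cd300lg, out of 19938 genes with a value. Members were selected by name, and each gene's value was chosen by the highest mean over all arrays among its probe sets with a single gene symbol; each member had exactly 1 such probe set. All 7 members passed the filter on dim genes, which used the mean over all 12 arrays and left 14953 genes for testing. The family was proposed with results of these data known, so its p-values are descriptions of this list and no independent support for it. The cells were mature conventional dendritic cells of both lineages, cDC1 and cDC2, sorted at steady state from spleens digested with Collagenase B and DNAse 1. The mice were WT, Flt3 KO, which lack the receptor kinase FLT3 that dendritic cells need to develop in normal numbers, or Flt3L KO, which lack its ligand. Each of the 6 groups had 2 arrays, labelled as biological replicates. Strain, age, the knockout alleles and whether mice were pooled are not given in the labels. Precision is limited by having 2 arrays a group.

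CD300 proteins are single-pass surface receptors with an immunoglobulin-like domain, found mainly on myeloid cells, and several of them bind lipids such as phosphatidylserine or phosphatidylethanolamine that dying cells expose. Inhibitory members carry tyrosine motifs in a long cytoplasmic tail that recruit phosphatases such as SHP-1, the product of Ptpn6. Activating members have a short tail and signal through adaptors such as DAP12, the product of Tyrobp, or the Fc receptor gamma chain, the product of Fcer1g. In the mouse, 6 of the 7 members lie in 1 cluster on chromosome 11, in the order Cd300a, Cd300lb, Cd300c, Cd300ld, Cd300e and Cd300lf, with other genes among them; Cd300lg lies apart on the same chromosome, with 143 genes with a value in between.

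Promoter sequences are shown for 3 genes of the cluster, because the values below set Cd300ld apart from Cd300ld3, Cd300ld4 and Cd300ld5, and Cd300lf had the widest range of group means of any member. Each is the 250 bases before the annotated start in RefSeq, build GRCm38.p6, minus strand: chr11:114989887-114990136 for Cd300ld, chr11:115026934-115027183 for Cd300ld4 and chr11:115133993-115134242 for Cd300lf. Capitals mark GAGGAAGT, a match to the type of ETS site that PU.1 binds.
Cd300ld: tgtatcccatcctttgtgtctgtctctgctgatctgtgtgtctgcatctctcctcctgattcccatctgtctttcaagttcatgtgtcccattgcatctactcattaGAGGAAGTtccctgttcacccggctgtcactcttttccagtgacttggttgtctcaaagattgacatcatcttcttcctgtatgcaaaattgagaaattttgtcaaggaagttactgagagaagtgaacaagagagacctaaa
Cd300ld4: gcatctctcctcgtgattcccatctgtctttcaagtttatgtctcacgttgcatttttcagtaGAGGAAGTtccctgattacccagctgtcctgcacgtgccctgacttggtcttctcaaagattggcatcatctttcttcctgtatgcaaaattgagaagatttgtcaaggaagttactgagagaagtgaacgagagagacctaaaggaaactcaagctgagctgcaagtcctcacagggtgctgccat
Cd300lf: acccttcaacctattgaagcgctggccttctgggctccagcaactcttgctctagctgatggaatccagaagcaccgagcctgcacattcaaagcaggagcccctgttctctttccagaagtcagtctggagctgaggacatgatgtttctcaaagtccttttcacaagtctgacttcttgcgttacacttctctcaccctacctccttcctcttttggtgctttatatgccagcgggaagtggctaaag

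The promoter table held 6 of the 7 members, with no entry for Cd300lg, and all 4 of the other cluster genes looked up (Cd300c2, Cd300ld3, Cd300ld4 and Cd300ld5). GAGGAAGT, searched on both strands, begins at -143 from the start in Cd300ld and at -187 in Cd300ld3, Cd300ld4 and Cd300ld5. It was not found in this window of Cd300a, Cd300c, Cd300c2, Cd300e, Cd300lb or Cd300lf. This motif was chosen after the sequences were seen, and 2.44% of 32851 promoter windows of the same length hold it. The shorter ETS core GGAA, which every GAGGAAGT contains, occurs in all 10 of these promoters and in 93.4% of all windows; the ETS-IRF composite motif occurs in none of the 10 and in 2.3% of all windows. In global alignments the promoters of Cd300ld4 and Cd300ld5 were 100% identical, Cd300ld3 and Cd300ld4 94.8%, and Cd300ld and Cd300ld3 62.5%. Such matches are descriptions of letters and not of binding.

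Markers matched the sorted cell types. The summed intensity of 10 cDC1 markers was 24060 to 27060 on cDC1 arrays and 5859 to 6322 on cDC2 arrays, and that of 10 cDC2 markers was 745 to 953 and 7705 to 9216. Flt3 intensity was 2299 ± 47.6 in WT cDC1 (SD, n = 2) and 364 ± 9.58 in Flt3 KO cDC1, and 1779 ± 53.2 in WT cDC2 and 361 ± 14.7 in Flt3 KO cDC2. Flt3l intensity was 113 ± 0.611 in WT cDC1, 124 ± 6.68 in Flt3L KO cDC1, 147 ± 3.24 in WT cDC2 and 113 ± 6.27 in Flt3L KO cDC2. It was 1.30-fold lower in Flt3L KO than WT cDC2 (adjusted p = 0.0267) and 1.10-fold higher in Flt3L KO than WT cDC1 (adjusted p = 0.403), and the sources used here do not say whether its probes lie in the deleted part. Median intensities of the arrays were 59.0 to 63.0. The log2 values of the 2 WT cDC1 arrays differed with an SD of 0.21 over genes, against 0.131 to 0.154 in the other groups.

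**Figure D1:**
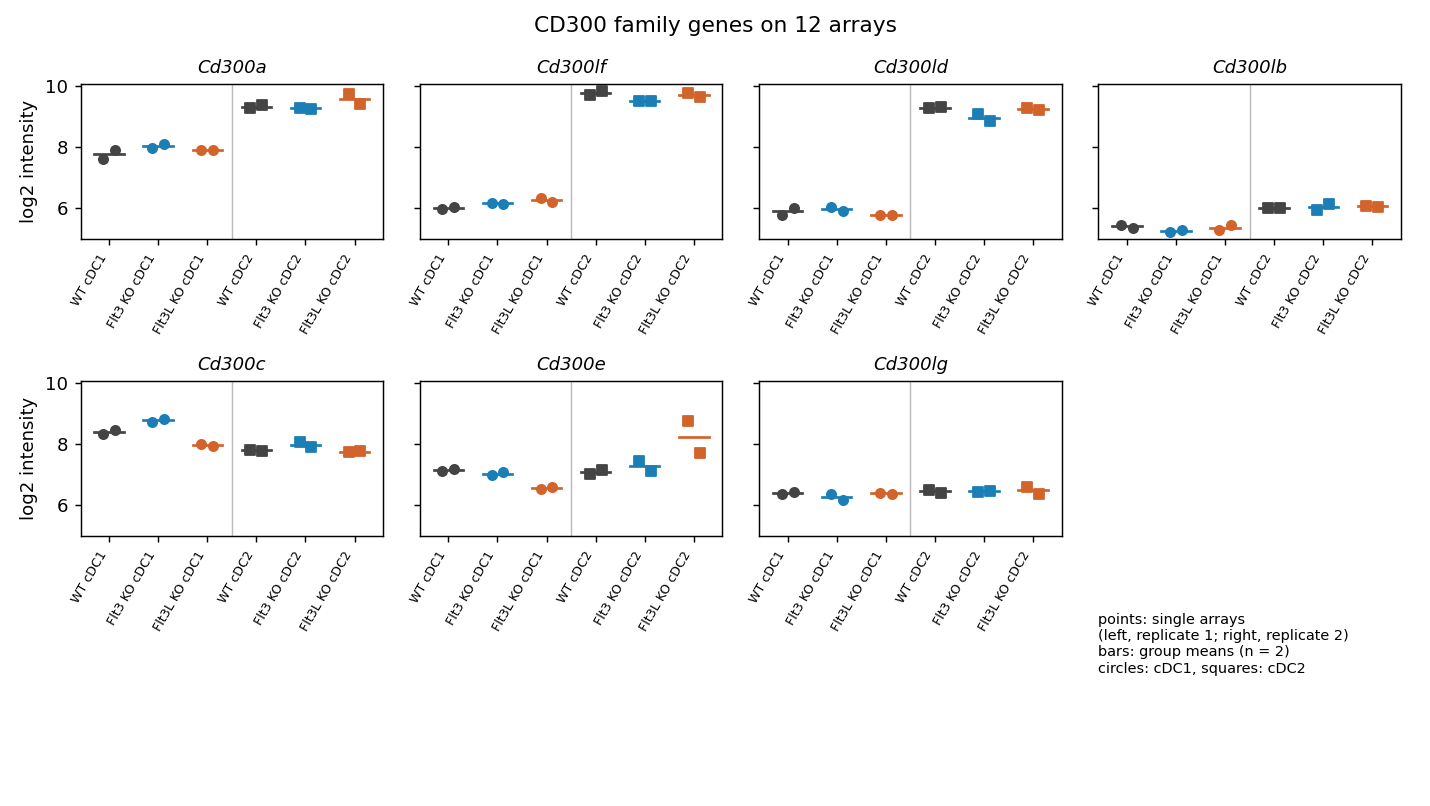
Log2 intensity (vertical axis) of the 7 CD300 members in the 6 groups (horizontal axis); points are single arrays, with replicate 1 on the left, and bars are means of 2 arrays. Cd300a, Cd300lf, Cd300ld and Cd300lb are higher on every cDC2 array than on any cDC1 array, and Cd300e is highest on the 2 Flt3L KO cDC2 arrays, which lie far apart at intensities of 431 and 210.

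In WT cells, 4 of the 7 members were lower in cDC1 than in cDC2 (Cd300lf, Cd300ld, Cd300a and Cd300lb), 1 was higher (Cd300c), and Cd300e and Cd300lg did not pass the test. Genes were called at a Benjamini-Hochberg adjusted p under 0.05 in limma; among all genes, 18.4% were called lower and 21.0% higher in this comparison. The members' median log2 difference (cDC1 minus cDC2) was -0.61, beside 0.07 for all genes tested. The same 4 members were lower in Flt3 KO cells, where 16.4% of genes were called lower and 19.1% higher, and Cd300c was again higher. In Flt3L KO cells 5 members were lower (these 4 and Cd300e) and none was higher, with 15.9% and 18.9% of genes called. Averaged over the 3 genotypes, these 5 were lower and Cd300c was higher, with 23.5% and 28.1% of genes called. In sorted bulk samples, fewer cells that express a gene and less RNA per cell cannot be told apart.

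Of the inhibitory members, Cd300lf, which encodes CLM-1, a receptor for phosphatidylserine and ceramide, differed most. Its intensity was 62.8 and 66.3 on the WT cDC1 arrays and 842 and 929 on the WT cDC2 arrays. It was 72.0 and 70.7 in Flt3 KO cDC1 against 735 and 738 in Flt3 KO cDC2, and 80.5 and 74.0 in Flt3L KO cDC1 against 873 and 808 in Flt3L KO cDC2. Every cDC2 array was thus far above every cDC1 array in each genotype. The log2 difference was -3.78 ± 0.08 (SE) in WT (13.7-fold, adjusted p = 3.53e-12), -3.37 ± 0.08 in Flt3 KO (10.3-fold, adjusted p = 8.78e-12) and -3.44 ± 0.08 in Flt3L KO (10.9-fold, adjusted p = 1.08e-11). Its cDC1 values lay near the middle of all probe sets on an array, and at such levels background in both groups can make a fold too small. The largest knockout differences were 0.26 ± 0.08 in Flt3L KO against WT cDC1 (adjusted p = 0.135) and -0.26 ± 0.08 in Flt3 KO against WT cDC2 (adjusted p = 0.409), neither of which passed the test.

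Cd300a, the inhibitory receptor for phosphatidylserine and phosphatidylethanolamine, was clearly measured in both cell types. Its intensity was 197 and 241 in WT cDC1, 250 and 278 in Flt3 KO cDC1, and 239 and 241 in Flt3L KO cDC1. In cDC2 it was 629 and 668 in WT, 628 and 614 in Flt3 KO, and 854 and 683 in Flt3L KO. The lowest cDC2 array was more than double the highest cDC1 array. The log2 difference between the cell types was -1.57 ± 0.12 in WT (2.97-fold, adjusted p = 2.03e-07), -1.24 ± 0.12 in Flt3 KO (adjusted p = 2.09e-06) and -1.67 ± 0.12 in Flt3L KO (adjusted p = 1.26e-07). The 3 cDC2 groups followed each other by gaps within the 95% interval of a difference between groups (0.25 on the log2 scale), and so did the 3 cDC1 groups, but the ends of each run lay further apart: Flt3L KO was above Flt3 KO cDC2 by 0.30 (95% interval 0.048 to 0.549 before adjustment, adjusted p = 0.301). Flt3 KO was above WT cDC1 by 0.27 (0.022 to 0.523, adjusted p = 0.379). No knockout comparison was called; the differences from WT ran from -0.06 in Flt3 KO cDC2 (adjusted p = 0.958) to this 0.27.

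Of the activating members, Cd300ld, which encodes CLM-5, a receptor that pairs with the Fc receptor gamma chain, followed the pattern of Cd300lf. Its intensity was 54.3 and 64.9 in WT cDC1, 66.3 and 59.8 in Flt3 KO cDC1, and 55.2 and 54.7 in Flt3L KO cDC1. In cDC2 it was 623 and 644 in WT, 543 and 467 in Flt3 KO, and 629 and 601 in Flt3L KO. The cell types did not overlap, and the 2 Flt3 KO cDC2 arrays were the lowest of the cDC2 arrays. Cd300ld was lower in cDC1 by 10.7-fold in WT (log2 difference -3.42 ± 0.10, adjusted p = 3.94e-11), 8.0-fold in Flt3 KO (-3.0 ± 0.10, adjusted p = 1.34e-10) and 11.2-fold in Flt3L KO (-3.48 ± 0.10, adjusted p = 4.75e-11). Flt3 KO cDC2 differed from WT cDC2 by -0.33 ± 0.10 on the log2 scale, which did not pass the test (adjusted p = 0.408).

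Cd300lb, which encodes CLM-7, a receptor that signals through DAP12, was dim. Its intensity ran from 37.2 to 43.9 on the 6 cDC1 arrays and from 60.7 to 69.6 on the 6 cDC2 arrays, between the 37.5th and the 53.8th percentile of probe sets. The cell types nevertheless did not overlap. The log2 difference was -0.61 ± 0.09 in WT (1.53-fold, adjusted p = 0.000118), -0.77 ± 0.09 in Flt3 KO (adjusted p = 1.65e-05) and -0.70 ± 0.09 in Flt3L KO (adjusted p = 3.92e-05). Its differences between knockouts and WT lay between -0.14 and 0.05, and none was called.

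Cd300c, grouped with the activating members by its short tail, ran the other way. Its intensity was 321 and 356 in WT cDC1, 423 and 459 in Flt3 KO cDC1, and 259 and 245 in Flt3L KO cDC1. In cDC2 it was 225 and 220 in WT, 268 and 239 in Flt3 KO, and 212 and 221 in Flt3L KO. The cDC1 groups were ordered Flt3 KO, WT, Flt3L KO without overlap, while the Flt3L KO cDC1 and Flt3 KO cDC2 arrays overlapped. Cd300c was higher in cDC1 by 1.52-fold in WT (log2 difference 0.60 ± 0.09, adjusted p = 9.36e-05) and by 1.74-fold in Flt3 KO (0.80 ± 0.09, adjusted p = 7.91e-06). In Flt3L KO the difference was 0.22 ± 0.09, with a 95% interval of 0.029 to 0.402 before adjustment, and did not pass the test (adjusted p = 0.0719).

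Cd300e, which encodes CLM-2 and whose human counterpart is known from monocytes, had no called difference between WT cDC1 and cDC2 (0.07 ± 0.23, adjusted p = 0.824) or between the Flt3 KO cell types (-0.25 ± 0.23, adjusted p = 0.459). Its intensity was 141 and 146 in WT cDC1, 129 and 135 in Flt3 KO cDC1, and 92.6 and 96.6 in Flt3L KO cDC1. In cDC2 it was 131 and 141 in WT, 175 and 140 in Flt3 KO, and 431 and 210 in Flt3L KO. The 2 Flt3L KO cDC1 arrays were the lowest of all 12 and the 2 Flt3L KO cDC2 arrays the highest. In Flt3L KO cells Cd300e was 3.18-fold lower in cDC1 than in cDC2 (log2 difference -1.67 ± 0.23, adjusted p = 7.22e-05).

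Cd300lg, which encodes an adhesion receptor of endothelium known as nepmucin, barely varied. Its intensity ran from 71.3 to 96.4 over the 12 arrays, and its group means spanned 0.22 on the log2 scale. Groups next to each other in the order of means overlapped, and none of the comparisons was called; averaged over genotypes, the difference between cDC1 and cDC2 was -0.11 ± 0.05 (adjusted p = 0.113; 95% interval -0.226 to 0.008 before adjustment). The summed intensity of 10 endothelial markers was 757 to 891 on all arrays, and 5 of the 10 were below every array's median. Of 8 tested, 1 was called higher in Flt3L KO than in WT cDC2, beside 1.04% of genes called higher. Within the sum, Kdr was 48.2 in WT, 52.8 in Flt3 KO and 97.2 in Flt3L KO cDC2.

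**Figure D2:**
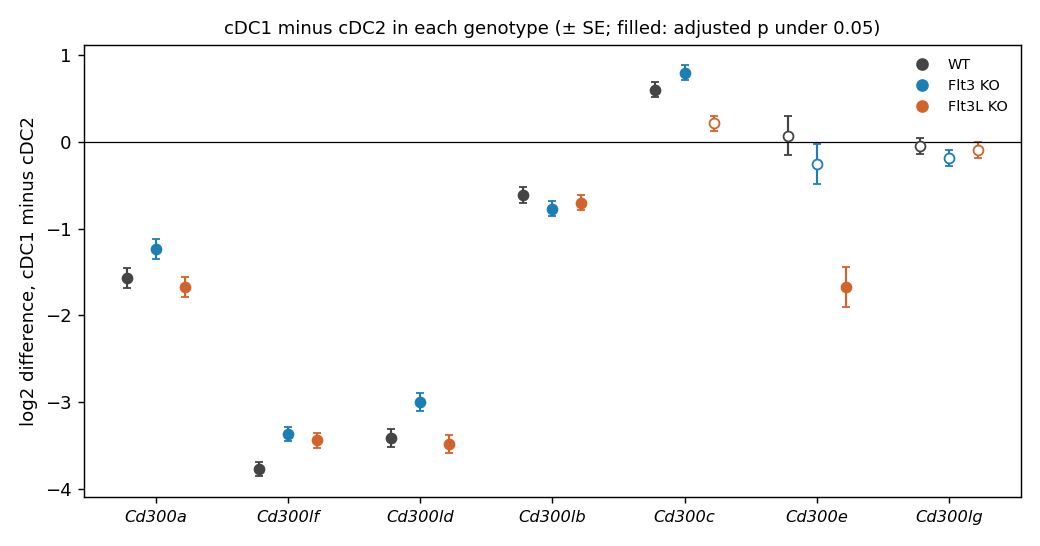
Log2 difference between cDC1 and cDC2 (vertical axis; below 0 means lower in cDC1) for each CD300 member (horizontal axis) in WT, Flt3 KO and Flt3L KO; bars are SE from limma, and filled points passed an adjusted p of 0.05. Cd300lf and Cd300ld lie between -3.78 and -3.0 in all 3 genotypes, Cd300c lies above 0, and the Flt3L KO point of Cd300e lies at -1.67 while the other two lie near 0.

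No member passed the threshold in a comparison of Flt3 KO with WT on all arrays. In Flt3 KO against WT cDC1, 0 of 7 members were called with limma, beside 0.0803% of all genes, and 2 had an unadjusted p under 0.05, as did 12.5% of genes; the largest difference was that of Cd300c (0.38 ± 0.09, 1.31-fold, adjusted p = 0.168). Calls in this comparison depended on which WT cDC1 array was left out. Without replicate 2, more genes were called and Cd300c was among them, at a log2 difference of 0.46. Without replicate 1, fewer genes were called and Cd300c was not among them. Each of these fits left 1 array in that group, and replicate 1 had the highest median intensity of the 12 arrays (63.0). In Flt3 KO against WT cDC2, 0 of 7 were called, beside 0.107% of genes, and 2 had an unadjusted p under 0.05 (Cd300ld and Cd300lf), as did 7.28% of genes. Averaged over both cell types, 0 of 7 were called, beside 0.254% of genes, and 1 had an unadjusted p under 0.05 (Cd300c, 0.28 ± 0.06, adjusted p = 0.111), as did 10.2% of genes. The difference of the receptor effect between cDC2 and cDC1 was called for 0 members and for 0% of genes, although 1342 genes (8.97%) and 2 members had an unadjusted p under 0.05. Without replicate 2 of WT cDC1, which again left replicate 1 alone in that group, more genes but no member were called for that difference.

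In cDC1, Cd300c differed between Flt3L KO and WT. It was 1.34-fold lower in Flt3L KO than in WT cDC1 (log2 difference -0.43 ± 0.09, adjusted p = 0.0408), the only member called, beside 0.415% of genes called lower. This call was held in 6 of 13 alternatives, with adjusted p from 0.0105 to 0.284, and was lost without either Flt3L KO cDC1 array (adjusted p = 0.159 without replicate 1 and 0.17 without replicate 2) or without replicate 2 of WT cDC1 (0.0633). Between the knockouts the gap was wider: Cd300c was 1.75-fold lower in Flt3L KO than in Flt3 KO cDC1 (-0.81 ± 0.09, adjusted p = 0.000737), again the only member called, beside 0.662% of genes called lower, and every alternative held it. The WT value thus lay between those of the knockouts. In cDC2 the difference of Flt3L KO from WT was -0.04 ± 0.09 (adjusted p = 0.885); the difference of the ligand effect between the cell types, 0.39 ± 0.12, did not pass the test (adjusted p = 0.188).

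In cDC2, Cd300e differed between Flt3L KO and WT. It was 2.21-fold higher in Flt3L KO than in WT cDC2 (log2 difference 1.15 ± 0.23, adjusted p = 0.0241), the only member called, beside 1.04% of genes called higher. The replicates of Flt3L KO cDC2 differed by 1.03 on the log2 scale. Without replicate 1 of that group the difference was 0.63 (adjusted p = 0.0631), and without replicate 1 or 2 of WT cDC2 it was 1.09 (0.173) or 1.2 (0.138), so leaving out any 1 of these 3 arrays ended the call. Against Flt3 KO cDC2 the difference was 0.94 ± 0.23 (adjusted p = 0.0823); 0 of 7 members were called in that comparison, beside 0.930% of genes, and 5 had an unadjusted p under 0.05, as did 12.7% of genes. Against Flt3 KO cDC2 it was called (1.46, adjusted p = 0.00024) without replicate 2 of Flt3L KO cDC2.

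In cDC1, Cd300e was 1.51-fold lower in Flt3L KO than in WT (-0.60 ± 0.23), which did not pass the test (adjusted p = 0.208). The ligand effect on Cd300e was larger in cDC2 than in cDC1 by 1.74 ± 0.32 on the log2 scale (adjusted p = 0.0402), the only member so called, beside 0.247% of genes called higher. Over the alternatives this difference ran from 1.23 to 2.26 and was called in 11 of 17; it was not called without replicate 1 of WT cDC1 (adjusted p = 0.0751), either WT cDC2 array (0.133 and 0.113) or either Flt3L KO cDC1 array (0.133 and 0.092). Averaged over both cell types, 0 of 7 members were called in Flt3L KO against WT, beside 3.0% of genes, and 2 had an unadjusted p under 0.05, as did 17.3% of genes. Cd300c was the nearer to the threshold of these (-0.23 ± 0.06, adjusted p = 0.0628). The comparisons with WT share the WT arrays, and those between knockouts share the knockout arrays.

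**Figure D3:**
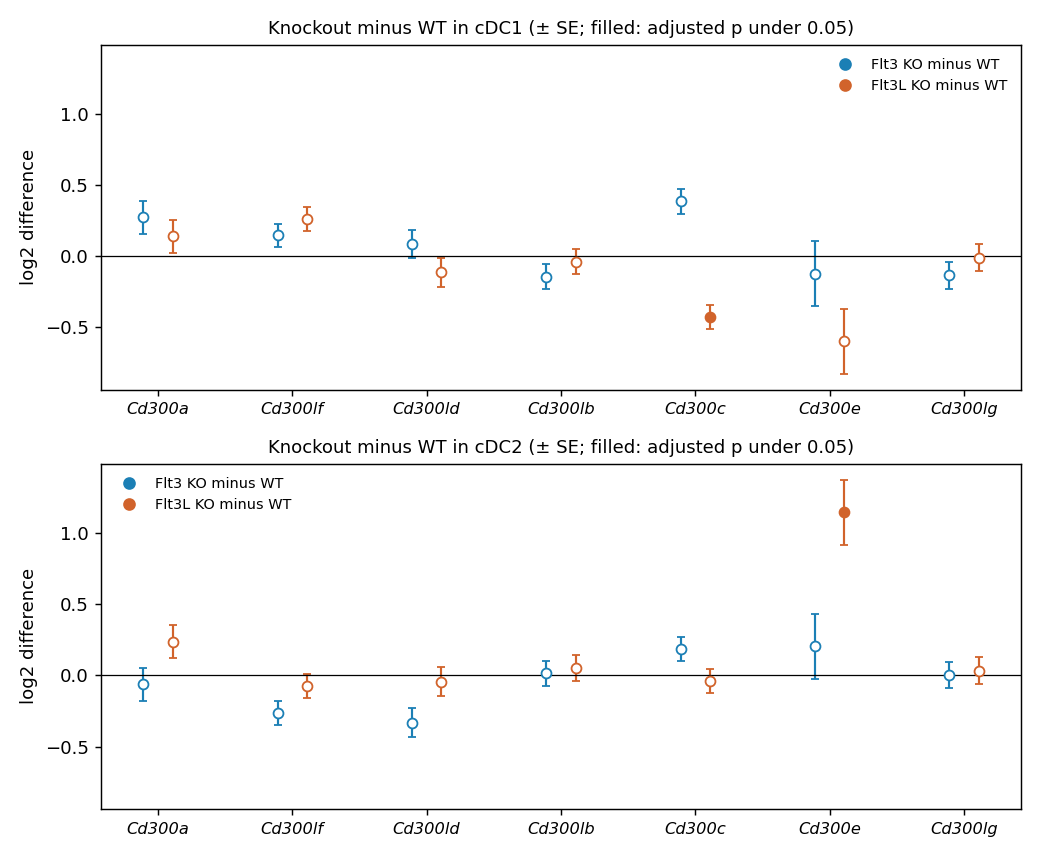
Log2 difference between each knockout and WT (vertical axis) for each CD300 member (horizontal axis) in cDC1 (upper panel) and cDC2 (lower panel); bars are SE from limma, and filled points passed an adjusted p of 0.05. The filled points are Cd300c in Flt3L KO cDC1, at -0.43, and Cd300e in Flt3L KO cDC2, at 1.15.

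Genes of the cluster outside the list of 7 were read on the same arrays. Cd300c2 encodes CLM-4, an activating receptor that pairs with DAP12 or the Fc receptor gamma chain. Its intensity was 602 and 631 in WT cDC1, 681 and 709 in Flt3 KO cDC1, and 529 and 534 in Flt3L KO cDC1, against 1379 and 1413, 1447 and 1386, and 1626 and 1416 in the cDC2 of these genotypes. It was lower in cDC1 by 2.27-fold in WT, 2.04-fold in Flt3 KO and 2.85-fold in Flt3L KO (adjusted p = 1.11e-07, 4.4e-07 and 1.1e-08). In cDC1 the genotypes had the order seen for Cd300c, with Flt3L KO 1.31-fold below Flt3 KO (-0.39 ± 0.08, adjusted p = 0.0494); that call was held in 4 of 13 alternatives, and in none that left out an array of either group (adjusted p = 0.142 to 0.291).

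Cd300ld3, Cd300ld4 and Cd300ld5 shared 2 probe sets that carry all 3 symbols, so their signal cannot be assigned to one of them. These probe sets, called A and B here, were named after their values were seen and were tested in a fit of 15966 genes and probe sets with several symbols. Intensity of probe set A was 99.0 and 88.7 in WT cDC1, 87.0 and 77.0 in Flt3 KO cDC1, and 89.6 and 88.0 in Flt3L KO cDC1. In cDC2 it was 216 and 206 in WT, 279 and 254 in Flt3 KO, and 587 and 450 in Flt3L KO. The Flt3L KO cDC2 arrays were the highest and did not overlap any others.

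Both probe sets were lower in WT cDC1 than cDC2 (-1.17 ± 0.12 for A and -1.11 ± 0.12 for B), beside 18.4% of features in this fit. In Flt3L KO against WT cDC2, A was 2.44-fold higher (1.29 ± 0.12, adjusted p = 0.000293) and B 2.37-fold higher (1.25 ± 0.12, adjusted p = 0.000342), beside 0.939% of features called higher. Against Flt3 KO cDC2, A was higher by 0.95 ± 0.12 (adjusted p = 0.00398) and B by 0.92 ± 0.12 (adjusted p = 0.00571), beside 0.463%. These calls against Flt3 KO cDC2 were lost without replicate 2 of Flt3 KO cDC2 (adjusted p = 0.0593 for A and 0.0642 for B) and without replicate 1 of Flt3L KO cDC2 (0.0522 for both). The ligand effect was larger in cDC2 than in cDC1 by 1.37 ± 0.17 for A and 1.32 ± 0.17 for B (adjusted p = 0.00821 for both), beside 0.251%. Cd300ld itself, whose promoter carries the same capital letters, differed by -0.04 ± 0.10 between Flt3L KO and WT cDC2 (adjusted p = 0.893; 95% interval -0.263 to 0.175 before adjustment).

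**Figure D4:**
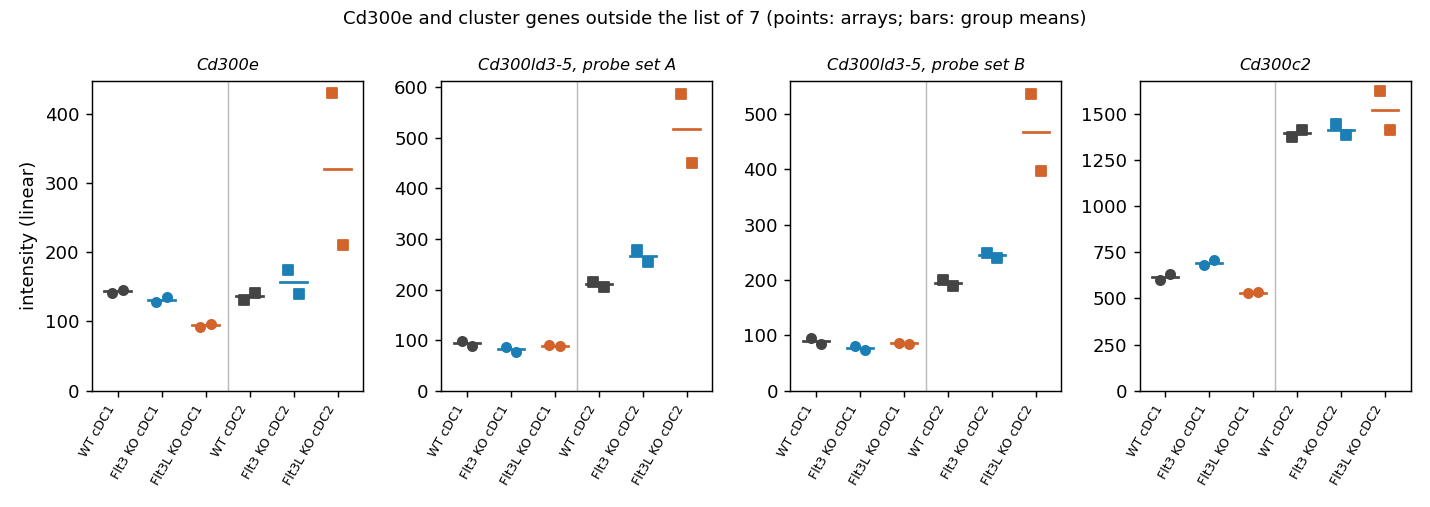
Intensity on a linear scale (vertical axis, from 0 in each panel) of Cd300e, probe sets A and B of Cd300ld3 to Cd300ld5, and Cd300c2 in the 6 groups (horizontal axis); points are arrays, with replicate 1 on the left, and bars are means of 2 arrays. In the first 3 panels the Flt3L KO cDC2 arrays are the highest, and replicate 1 is above replicate 2 (431 and 210 for Cd300e, 587 and 450 for A, 537 and 397 for B).

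Some macrophage and monocyte markers were also higher in Flt3L KO cDC2. The summed intensity of 15 macrophage markers was 985 to 1231 on cDC1 arrays, 1560 and 1625 in WT cDC2, 2184 and 2007 in Flt3 KO cDC2, and 3597 and 3106 in Flt3L KO cDC2. It was thus highest on the Flt3L KO cDC2 arrays, as was Cd300e, with replicate 1 above replicate 2. Elsewhere the sum did not follow Cd300e: it was higher in WT cDC2 than in WT cDC1, where Cd300e had no called difference. Much of that gap was Adgre4, at 495 in WT and 668 in Flt3L KO cDC2, against 25.3 to 28.6 in the cDC1 groups. In Flt3L KO against WT cDC2, 7 of 13 tested macrophage markers were higher and 0 lower, beside 1.04% of genes called higher: C1qa, C1qb and C1qc, which encode complement C1q (4.60-, 3.96- and 3.10-fold), the adhesion molecule Vcam1 (2.27-fold), the engulfment receptors Mertk (2.0-fold) and Axl (1.92-fold), and the heme oxygenase Hmox1 (1.63-fold). In Flt3 KO against WT cDC2, where Cd300e was not called, C1qa (2.19-fold, adjusted p = 0.0107) and Vcam1 (1.43-fold, adjusted p = 0.0321) were higher. The macrophage markers Cd163, Cd5l and Mrc1 stayed at intensities of 19.6 to 41.8 in every group, and 5 of the 15 were below every array's median. Among other markers not called, Spic was 141 in WT and 253 in Flt3L KO cDC2 (1.75-fold, adjusted p = 0.0758 in limma). Adgre4 was 1.35-fold and Siglec1 1.16-fold higher there (adjusted p = 0.1 and 0.174), and Marco 1.06-fold lower (0.71). Slc40a1, too dim for testing, was 19.2 in WT and 38.5 in Flt3L KO cDC2.

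Of the 9 tested monocyte markers, 3 were higher and 0 lower in Flt3L KO than in WT cDC2, beside 1.04% of genes called higher. They were the Fc receptor Fcgr4 (2.98-fold), Ace (1.84-fold) and Treml4 (1.65-fold). The monocyte list sum was 9019 and 9238 in WT cDC2, 9491 and 9427 in Flt3 KO cDC2, 10093 and 9251 in Flt3L KO cDC2 and 7667 to 9721 on cDC1 arrays; most of it was Nr4a1, and 4 of the 11 markers with a value were below every array's median. Vcan, F13a1 and Ms4a3, defining markers of classical monocytes and their precursors, stayed at intensities of 13.9 to 29.4 in every group. Fcgr1, also dim, went from 43.0 in WT to 53.0 in Flt3L KO cDC2 and was not called (adjusted p = 0.109 in limma). Other listed markers were brighter and not called. From WT to Flt3L KO cDC2, Cd14 went from 815 to 1077 and Spn from 123 to 163 (adjusted p = 0.119 and 0.169 in limma). Ccr2 went from 117 to 113 and Nr4a1 from 7009 to 6191 (adjusted p = 0.934 and 0.272). The part of such cells in the Cd300e, A and B values was not tested.

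Adaptors and effectors of CD300 signalling were read from lists. Of 16 tested genes for adaptors and activating signalling, 7 were lower and 2 higher in WT cDC1 than cDC2, beside 18.4% and 21.0% of all genes, with a median log2 difference of -0.24 beside 0.07 for all genes. Fcer1g was 8.85-fold lower in cDC1 (-3.15 ± 0.09), the Src-family kinase Fgr 5.51-fold, the kinase Syk 3.16-fold and Tyrobp 1.74-fold. Fcer1g was higher in both knockout cDC1 groups than in WT cDC1, by 1.51-fold in Flt3 KO (adjusted p = 0.0265) and 1.52-fold in Flt3L KO (adjusted p = 0.00648). The summed cDC2 markers were also higher there, at 882 to 918 in Flt3 KO cDC1 and 838 to 953 in Flt3L KO cDC1 against 745 to 767 in WT cDC1. They did not all rise. Cd209a went from 119 in WT to 224 in Flt3 KO and 139 in Flt3L KO cDC1, and Cd4 from 79.0 to 62.0 and 62.9. Of these 10 markers, 1 was called higher in Flt3 KO cDC1 (median log2 difference 0.037) and 0 in Flt3L KO cDC1 (0.185). Among all 14953 genes, 8 and 116 were called higher. The part of these markers in the Fcer1g values was not tested. Fyn, another Src-family kinase, was 1.31-fold higher in Flt3L KO than WT cDC2 (adjusted p = 0.0244) and 1.36-fold higher than in Flt3 KO cDC2 (adjusted p = 0.0245), and the adaptor Blnk was 1.59-fold higher in Flt3L KO than WT cDC2 (adjusted p = 0.0175).

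Of 8 inhibitory effectors, 3 were lower and 2 higher in WT cDC1, beside 18.4% and 21.0% of all genes, with a median of -0.10 beside 0.07. Sh2d1b1, which encodes the adaptor EAT-2, was 13.9-fold lower, Ptpn6 2.06-fold lower and the kinase Csk 1.62-fold lower, while Ptpn11, which encodes SHP-2, was 1.45-fold higher. The fold of Sh2d1b1 rests on a dim cDC1 value: its cDC1 group means were 19.7 to 22.04, below every array's lower quartile of intensity (23.3 to 25.7), and it passed the filter through its cDC2 values. None of the 8 was called in a comparison of a knockout with WT or with the other knockout. Few of all genes were called either, 12 to 291 of 14953 in each such comparison within a cell type.

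Of 26 tested genes for other paired and inhibitory receptors of myeloid cells, 16 were lower and 3 higher in WT cDC1 than in WT cDC2, beside 18.4% and 21.0% of all genes, with a median of -0.87 beside 0.07. Sirpa, the receptor for CD47 and itself a cDC2 marker, was 34.3-fold lower, Siglecg 8.06-fold lower and the collagen receptor Lair1 5.76-fold lower. The lectin Clec4a2 was 9.46-fold lower, again from cDC1 group means (20.2 to 23.2) below every array's lower quartile. The 3 higher were Treml4 (5.43-fold), the lectin Clec12a (3.37-fold) and Treml2 (log2 difference 0.50). In Flt3L KO against WT cDC2, 4 of the 26 were higher and 0 lower, beside 1.04% of genes called higher. They were Pilra (2.22-fold, adjusted p = 0.00287), Pilrb1 (2.09-fold, adjusted p = 0.0163), Treml4 (1.65-fold, adjusted p = 0.0352) and Trem3 (1.58-fold, adjusted p = 0.0441). Treml4 is also on the monocyte list. Pilra, Treml4 and Cd84 were also higher in Flt3L KO than in Flt3 KO cDC2 (1.91-, 1.88- and 1.31-fold).

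Genes that flank the cluster did not share one direction. Such calls were common: 21.0% of all genes were called higher and 18.4% lower in WT cDC1 than in WT cDC2. Of the 5 genes before it, Gprc5c (1.40 ± 0.12) and Kif19a (0.44 ± 0.12) were higher in WT cDC1, and Dnaic2, Btbd17 and Gpr142 were not called. Of the 5 after it, Slc9a3r1 (-0.51 ± 0.09) and Tmem104 (-0.56 ± 0.11) were lower, Nat9 (0.28 ± 0.09) was higher, and Grin2c and Fads6 were not called. Rab37, which lies inside the cluster and encodes a small GTPase of secretory vesicles, was lower in cDC1 (-0.86 ± 0.09). None of these 11 genes was called in a comparison of a knockout with WT or with the other knockout in either cell type. Few of all genes were called there, 12 to 291 of 14953 in each comparison.

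Genes with the most similar pattern were ranked for the 5 members whose group means spanned at least 1 on the log2 scale, by Pearson correlation of log2 intensity over the 12 arrays. The arrays fall into 2 cell types, so for members that differ between them the coefficient mostly describes that split, and it carries no test. For Cd300lf these were Clec4a1, Ctsa, Tlr7 and Sirpa (all 0.998), and for Cd300ld they were Sh2d1b1 (0.998), Clec4a2 (0.997), Itgam and S100a4 (both 0.996). For Cd300a they were Ptpn1 (0.996), Ugcg (0.994), Lair1 and Rad18 (both 0.990), and for Cd300c they were Cebpzos (0.977), Ms4a1 (0.961), Grk5 (0.957) and Idh3b (0.956).

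For Cd300e they were Smpdl3b (0.955), Apoe (0.952), Pparg (0.951) and Ly6i (0.941). These genes were ranked by likeness to Cd300e, so a shared peak follows from that choice and is no separate support. All 4 had their highest mean in Flt3L KO cDC2, as did Cd300e. Apoe, the lipid carrier apolipoprotein E, had an intensity of 716 ± 89.9 there (SD, n = 2), against 419 ± 6.31 in WT cDC2 and 310 ± 23.9 in Flt3L KO cDC1. Pparg, a nuclear receptor of lipid metabolism, had 127 ± 44.6 there, against 54.6 ± 2.04 and 44.2 ± 2.21.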

How the data were processed

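The authors deposited a linear intensity for every probe set on each of 12 GeneChip arrays (Ambion WT Expression and GeneChip WT Terminal Labeling kits, biotin label, per the labels' protocols); how the authors summarised and normalized these intensities is a step that the sources used here do not give. Of 30177 probe sets, 21789 had 1 symbol, 1621 several and 6767 none in the probe table. Log2 was taken, the highest-mean probe set kept per gene, and the lowest share of 0.25 by mean left out (mean log2 under 4.78), except Flt3 and Flt3l. A model with a mean for each group was fitted to all 12 arrays in limma 3.58.1 (R 4.3.3, statmod 1.5.0; 6 residual degrees of freedom), with Benjamini-Hochberg adjustment over 14953 genes in each of 14 comparisons; the script was tested on simulated data. P-values measure the spread between arrays. Promoters were aligned in Biopython 1.88.

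Members and lists were chosen with earlier results of these data known. Named genes are the members, other cluster genes, flanking genes, the 4 most correlated genes, up to 4 of each signalling list with the smallest p in WT, and list genes called in a pairwise knockout comparison. Alternatives were quantile normalization, other filters, an offset of 16, a trended and robust prior, the mean of probe sets, only the arrays compared, replicate blocks and leaving out each array.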

Additional observations from a re-analysis of the deposited data

Results flagged for a closer look

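The difference of Flt3L KO from WT was not the same in the 2 cell types for 3 probe sets of the CD300 cluster. For Cd300e, the Flt3L KO effect in cDC2 exceeded that in cDC1 by 1.74 on the log2 scale (adjusted p = 0.0402). For the probe sets shared by Cd300ld3, Cd300ld4 and Cd300ld5, it did so by 1.37 (A) and 1.32 (B), with an adjusted p of 0.00821 for both. The 2 Flt3L KO cDC2 arrays are the highest for each, and macrophage markers and 3 monocyte markers are higher on the same arrays; their part was not tested.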

How the results depend on the processing

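Of 25 called values of the 7 members, 350 of 367 alternatives kept the call and direction, 17 lost the call and 0 reversed; of 1054 alternatives for the 73 uncalled values, 15 became called. All 17 losses were in comparisons with a knockout effect, and none in a comparison of cDC1 with cDC2. They fell on Cd300c in Flt3L KO against WT cDC1, and on Cd300e in Flt3L KO against WT cDC2 and in the difference of the ligand effect. The members called in Flt3L KO against WT averaged over cell types rose from 0 to 1 (Cd300c) with quantile normalization (1), with a share of 0.5 left out (1), with a trended and robust prior (1) and with an offset of 16 (1); the robust prior also gave 1 in Flt3 KO against WT averaged over cell types. In Flt3L KO against WT cDC1 the count fell from 1 to 0 with no filter (0), with only the arrays compared (0), with the replicate block (0; Cd300c -0.43, adjusted p = 0.0593) and with the replicate block within genotype (0; adjusted p = 0.0626). With only the arrays compared, it was 0 in Flt3L KO against WT cDC2, 0 for the difference of the ligand effect between cell types, and 2 (Cd300c and Cd300e) in Flt3L KO against Flt3 KO cDC1. With the offset it was 1 (Cd300e) in Flt3L KO against Flt3 KO cDC2. The cause of these changes was not tested, beyond the fewer arrays or other genes that a setting uses. With each array left out in turn, the counts were 5 to 5 for cDC1 against cDC2 in each genotype, 6 to 7 averaged over genotypes (Cd300lg became called without replicate 1 of Flt3 KO cDC1 or replicate 2 of Flt3L KO cDC2), 1 to 1 in Flt3L KO against Flt3 KO cDC1, and 0 to 0 for Flt3 KO against WT cDC2 and for the difference of the receptor effect between cell types. They were 0 to 1 in the other 7 comparisons: Flt3 KO against WT cDC1, both averages over cell types, Flt3L KO against WT in cDC1 and in cDC2, Flt3L KO against Flt3 KO cDC2 and the difference of the ligand effect. Over all genes these settings gave 3 to 1132 calls in Flt3 KO against WT cDC1 (12 on all arrays), 2 to 6 in cDC2 (16), 25 to 606 in Flt3L KO against WT cDC1 (178), 72 to 164 in cDC2 (291), 16 to 63 and 8 to 130 between the knockouts in cDC1 (132) and cDC2 (139), 9 to 219 and 144 to 591 in Flt3 KO and Flt3L KO against WT averaged over cell types (38 and 449), and 0 to 170 and 20 to 484 for the receptor and ligand differences between cell types (0 and 74). Deviations of same-numbered arrays of a genotype correlated at 0.159 in WT, 0.088 in Flt3 KO and 0.146 in Flt3L KO. Pairs of groups from different genotypes ran from -0.199 to 0.053, except Flt3 KO with Flt3L KO cDC2 (0.172). Whether same-numbered arrays came from the same animals is not in the labels. The main fit did not pair them, and the replicate block within genotype is the paired alternative. Dim genes limit folds: Cd300lb, and Cd300lf, Cd300ld, Sh2d1b1 and Clec4a2 in cDC1, lie near or below the middle of each array's probe sets.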
